A study of Mus musculus with 3 samples.

Results

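*Prom1*, the gene for the surface glycoprotein CD133 (prominin 1), was followed through 3 single-cell libraries of bone marrow cells that had been sorted for CD133 protein. It is 1 of the 27998 genes in the tables of unique molecular identifiers (UMIs, tags that count each captured mRNA molecule once). Its level was read by differentiation stage, by library and, in cells of the same stage, beside all other genes. The libraries came from C57BL/6 mice and are labelled control (age 3 months), young (3 months) and old (27 months in the sample label, 18.5 months in the series' design text), and no treatment is named for any of them. Cells of 3 mice went into each library, so that every label is 1 sample, and CD133+ cells were selected with an antibody by fluorescence-activated cell sorting. The series calls the cells endothelial like cells, and its design text also calls them intestinal, whereas the labels give bone marrow. All values of *Prom1* here are therefore mRNA levels among cells already chosen for the protein, and they say nothing of cells outside the gate.

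CD133 is a cholesterol-binding membrane protein with 5 spans that sits in microvilli and other protrusions, and it is widely used as a surface marker of stem and progenitor cells. In mouse marrow the gene is also transcribed in myeloid progenitors. Neutrophils mature there through promyelocytes, which fill azurophil granules with myeloperoxidase (*Mpo*) and elastase (*Elane*), then through myelocytes and metamyelocytes, which make specific granule proteins such as lactoferrin (*Ltf*), and lastly through band and segmented cells, which carry *Mmp8*, *Mmp9* and the resistin-like gene *Retnlg*.

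Those marker genes set the stages. Cells were placed in 5 stages by their *Mpo* UMIs per 10000 UMIs of the cell (100 or more, 30 to under 100, 10 to under 30, 3 to under 10, under 3), and cells with 10 to under 50 or with 50 or more UMIs of *Retnlg* and *Mmp8* together formed 2 later stages, whatever their *Mpo*. Of 29828 cells, 26839 passed the filters, and 876 of these were set apart because they carried at least 3 markers of another cell type. The remaining 25963 cells held the 7 stages. The kept cells of the control, young and old library had a median of 9560, 10175 and 12690 UMIs. Set-apart cells made up 0.90%, 9.58% and 0.837% of them. Between 120 and 161 cell barcodes were shared by any 2 libraries. The endothelial marker *Cdh5* stood at 0 to 0.578 UMIs per 1000000 UMIs (CPM) over the sums of 1 stage in 1 library, and *Pecam1* at 0.733 to 5.15 CPM. The 11 endothelial markers tried reached 3.67 to 26.3 CPM together, highest at the highest *Mpo*, after 1 cell with at least 3 of them was set apart. These genes alone did not mark the cells as endothelial. The study rests the name endothelial-like on uptake, tube-formation and transplant assays as well, which were not read here. The cells are called here by their stage.

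*Prom1* (ENSMUSG00000029086) lies on the minus strand of chromosome 5 between 43993620 and 44102032 (GRCm38, GENCODE M21). An antisense gene, *Gm16401*, covers its start on the plus strand (44100442 to 44102515). That gene had 8, 7 and 3 UMIs in the kept cells of the control, young and old library, against 5047, 3275 and 5466 UMIs of *Prom1*. A further overlapping gene, *Gm42716*, is not among the genes of the tables. *Prom2*, which encodes the related prominin 2, had 0 UMIs in every library, which allows at most 0.0402 CPM at 3 counts in the shallowest library. RefSeq (GRCm38.p6) lists 2 starts for *Prom1*, and the 300 bases around each are shown because they are the control regions of the gene whose level is followed. Counts made from 3′ ends do not tell which start a transcript used. Capitals mark matches on either strand to 4 short motifs of myeloid and erythroid transcription factors, which were chosen with the sequences in view. For PU.1 the letters searched were GAGGAAG. Those for the C/EBP factors, which act in granulocytes, were TTGCNNAA. The RUNX factors, which act early in blood formation, were given by TGTGGT. The GATA factors, known from erythroid and mast cells, were given by AGATAA.
*Prom1*, upstream start, chr5:44101687-44101986, minus strand: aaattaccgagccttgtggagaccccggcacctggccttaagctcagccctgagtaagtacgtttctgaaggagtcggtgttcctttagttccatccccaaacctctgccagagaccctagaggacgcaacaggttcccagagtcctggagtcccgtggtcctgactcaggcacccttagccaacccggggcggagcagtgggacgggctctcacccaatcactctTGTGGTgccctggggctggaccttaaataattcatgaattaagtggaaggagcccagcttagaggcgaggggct
*Prom1*, downstream start, chr5:44094719-44095018, minus strand: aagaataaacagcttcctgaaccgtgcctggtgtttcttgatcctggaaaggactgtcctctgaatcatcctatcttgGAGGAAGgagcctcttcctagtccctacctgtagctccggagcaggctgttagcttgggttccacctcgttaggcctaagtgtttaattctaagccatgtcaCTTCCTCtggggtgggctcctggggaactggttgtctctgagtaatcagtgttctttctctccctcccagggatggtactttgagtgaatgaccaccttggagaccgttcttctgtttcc
The upstream start held 1 RUNX match and the downstream start 2 PU.1 matches. Among 32851 promoters of the same length, 16.8% held the RUNX letters and 13.6% the PU.1 letters at least once. Neither start held the C/EBP or GATA letters.

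Transcripts of *Prom1* were most abundant in the cells with the most *Mpo* and their mean level was lower at every later stage. At 100 or more *Mpo*, *Prom1* stood at 81.4 CPM in control, 69.7 in young and 74.7 in old. At 30 to under 100 the values were 72.4, 67.3 and 69.4 CPM, and at 10 to under 30 they were 66.8, 59.2 and 64.3 CPM. The first 2 stages overlapped between libraries, and the third lay just below them, its highest value under the lowest of the stage before.

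A lower plateau followed. *Prom1* stood at 45.3, 40.3 and 45.7 CPM in control, young and old cells with 3 to under 10 *Mpo*, and at 43.3, 36.1 and 39.1 CPM in those with less than 3. In the first late stage, with 10 to under 50 *Retnlg* and *Mmp8*, the levels were 41.2, 36.4 and 32.9 CPM. All 9 of these values lay under all 9 values of the first 3 stages. The first late stage takes cells of any *Mpo*, and its *Mpo* stood at 747, 1267 and 378 CPM in control, young and old. Its cells with 3 to under 10 *Mpo* held 31.8, 26.1 and 30.9 CPM of *Prom1*, and those with under 3 held 43.9, 29.3 and 32.9 CPM. In the latest stage *Prom1* stood at 31.5 CPM in control, 26.3 in young and 16.4 in old. There every library was at its own lowest, and the old library was below the other two.

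Averaged over the 3 libraries, *Prom1* went from 75.3 ± 5.88 CPM (SD, n = 3) at the highest *Mpo* to 24.7 ± 7.70 CPM in the latest stage, a ratio of 3.04. The 5 stages between had means of 69.7, 63.4, 43.8, 39.5 and 36.8 CPM. The ratio of first to last stage was 2.58 in control, 2.64 in young and 4.56 in old. A fall of the gene per cell and a mixture of more cells without it cannot be told apart from a sum. The shares of cells given below do not separate these either. With so few *Prom1* UMIs per cell, the share with at least 1 UMI follows the mean level.

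**Figure D1:**
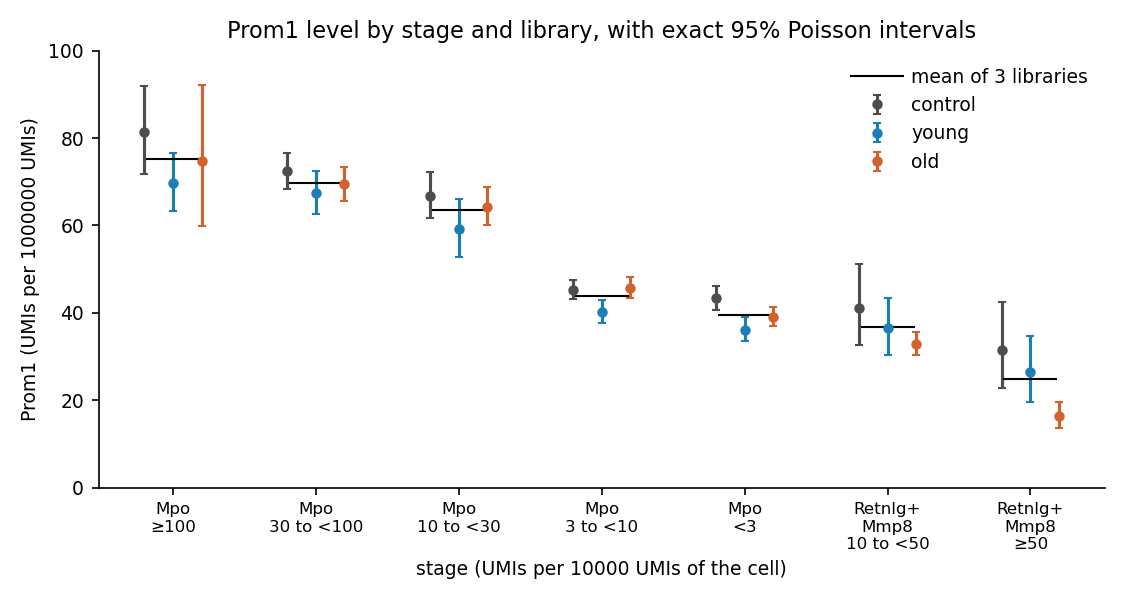
Prom1 level (UMIs per 1000000 UMIs, vertical axis) in the 7 stages (horizontal axis), 1 point per library with its exact 95% Poisson interval and a black bar at the mean of the 3 libraries. The means descend from 75.3 to 24.7, with steps from 63.4 to 43.8 at 3 to under 10 Mpo UMIs per 10000 and from 36.8 to 24.7 at the latest stage.

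The difference between the ends of the series was tested with the libraries as blocks, since every library held every stage. edgeR's quasi-likelihood test was run with TMM factors, which set the typical gene equal between sums. It gave *Prom1* a log2 fold change of 0.84 ± 0.12 between the highest *Mpo* and the latest stage (adjusted p = 1.35e-06). The SE here is taken from the test statistic, with 3 libraries as blocks. Such a call was common, since 32.9% of the 10823 genes tested were higher at the highest *Mpo* and 32.8% were lower. Of the same 10823 genes, 28.8% had a higher log2 fold change than *Prom1*. Without TMM factors the value was 1.79 while the median of all genes moved from 0.067 to 1.03, so that *Prom1* stood 0.77 and 0.76 above the median under the 2 scalings. The 20 most abundant genes took 20.5% to 21.2% of all UMIs at the highest *Mpo* and 51.8% to 54.6% in the latest stage. Relative to the typical gene *Prom1* was thus 1.71 times as high in the first as in the last stage. Without the old library the log2 fold change was 0.59 (adjusted p = 0.0019).

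Between neighbouring stages *Prom1* fell at 2 of 6 steps by the same edgeR test. From 10 to under 30 to 3 to under 10 *Mpo* the log2 difference was 0.27 ± 0.081 (adjusted p = 0.0138), where 13.5% of genes were higher and 13.7% lower on the side richer in *Mpo*. This call was lost without the control library (adjusted p = 0.154), without the libraries as blocks (0.361) and with stages set from thinned counts (0.0783). From the first to the second late stage the difference was 0.55 ± 0.12 (adjusted p = 0.00237), beside 5.68% of genes higher and 11.8% lower. It was 0.32 without the old library (adjusted p = 0.442) and 0.49 without blocks (0.114). At the other 4 steps the values were -0.015, -0.089, 0.079 and 0.037, with adjusted p between 0.432 and 0.9998. The first of these steps had 2.19% of genes higher and 3.84% lower, the second 18% and 15.5%, and that from under 3 *Mpo* to the first late stage 7.98% and 9.77%. Without TMM factors the first 2 of these 4 values changed sign, to 0.10 and 0.13, so the order of the 3 stages richest in *Mpo* depends on the scaling. The step from 3 to under 10 to under 3 *Mpo* hardly separated any gene, with 0.00924% called higher and 0% lower. That into the first late stage was not tested at equal *Mpo*.

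Both markers were then crossed, because *Mpo* falls while *Retnlg* and *Mmp8* rise. At under 3 *Retnlg* and *Mmp8*, *Prom1* over the 3 libraries together went from 72.8 CPM at 30 or more *Mpo* to 63.7, 46.6 and 41.8 CPM in the 3 lower bands of *Mpo*. At 10 to under 50 *Retnlg* and *Mmp8* the 2 lowest bands of *Mpo* stood the other way, at 30.2 CPM with 3 to under 10 and 33.1 CPM with under 3. At 3 to under 10 *Mpo* the sum over the libraries went from 46.6 CPM with under 3 *Retnlg* and *Mmp8* to 42.5, 30.2 and 19.0 CPM in the 3 higher bands, and at less than 3 *Mpo* it went from 41.8 to 38.5, 33.1 and 17.0 CPM.

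The libraries did not share all steps of these sums, and old held 459 of the 720 and 560 of the 783 cells in their last bands. At 3 to under 10 *Mpo*, control went from 47.1 to 40.7, 31.8 and 25.7 CPM and old from 52.3 to 44.6, 30.9 and 14.7 CPM, while young went from 40.4 to 40.2, 26.1 and 29.9 CPM. At less than 3 *Mpo*, control stood at 43.6, 42.6, 43.9 and 31.7 CPM, young at 36.5, 36.0, 29.3 and 13.4 CPM and old at 41.3, 38.8, 32.9 and 15.8 CPM. In all 3 libraries the last band was below the first at either level of *Mpo*, with intervals that overlapped in young at 3 to under 10 *Mpo* and in control at under 3. In cells with 30 or more *Mpo* the sums over the libraries had no such slope, as *Prom1* stood at 72.8, 67.7 and 75.2 CPM, the last from only 70 cells (95% interval 57.0 to 97.5 CPM).

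**Figure D2:**
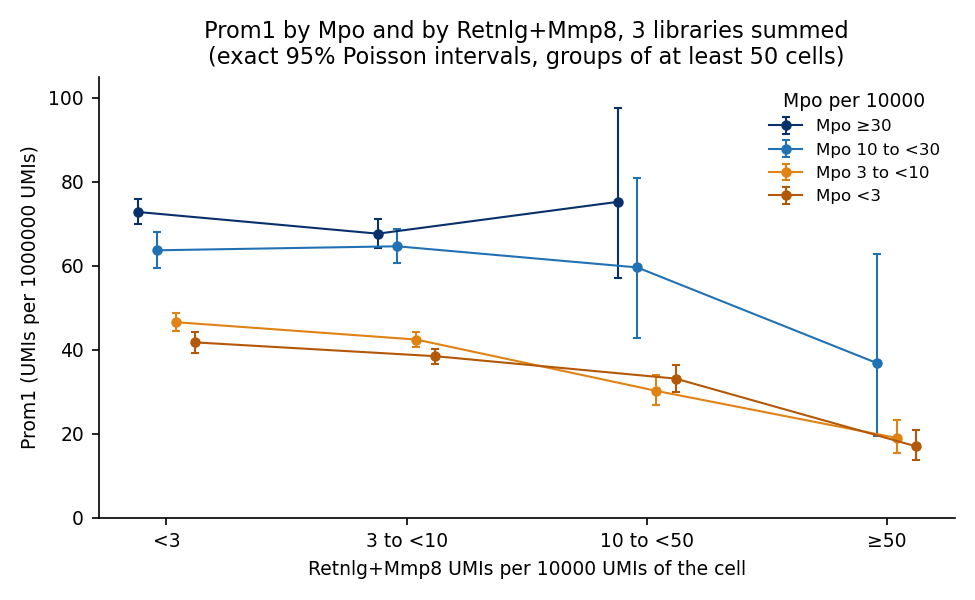
Prom1 level (UMIs per 1000000 UMIs, vertical axis) by band of Retnlg+Mmp8 (horizontal axis), with 1 line per band of Mpo and the 3 libraries summed (exact 95% Poisson intervals). The 2 lower Mpo bands go down from 46.6 and 41.8 to 19.0 and 17.0, and the highest band stays between 67.7 and 75.2.

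Depth within a stage was a second measure that moved with *Prom1*. Among cells with 3 to under 10 *Mpo*, the cells in the lowest of 3 equal classes of depth stood at 39.6, 34.6 and 41.0 CPM in control, young and old and those in the highest class at 52.2, 45.0 and 47.5 CPM. At 100 or more *Mpo* the order was the other way, with 112, 72.9 and 166 CPM in the shallowest class and 75.5, 59.5 and 56.8 CPM in the deepest. The old value of 166 CPM came from 31 cells. In the latest stage, the lowest, middle and highest class stood at 25.8, 13.5 and 43.9 CPM in control. They stood at 27.9, 16.6 and 30.3 CPM in young and at 9.68, 14.6 and 20.8 CPM in old. The highest class there held 30 of 43 control, 31 of 50 young and 75 of 127 old *Prom1* UMIs. Its *Elane* was 4264, 4554 and 1257 CPM in control, young and old, against 1042, 833 and 733 CPM in the middle class. The part of depth in the stage means was not tested beyond leaving out the cells above the 85th percentile of UMIs, which gave a log2 fold change of 1.0 between first and last stage.

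The share of cells with a *Prom1* UMI went the same way as the level. At the depths as sequenced, 53.8% to 58.4% of cells with 100 or more *Mpo* had at least 1 UMI, and 10.8% to 15.6% of cells in the latest stage. Median depth fell from between 11554 and 14246 UMIs to between 4436 and 6886 UMIs over these stages, so each cell was thinned at random to 3000 UMIs, for which no cell was too shallow. At this equal depth the share was 26.9% in control, 19.6% in young and 19.8% in old at the highest *Mpo*, and 7.23%, 6.23% and 5.12% in the latest stage. The means over the libraries were 22.1%, 19.4%, 16.0%, 12.1%, 10.7%, 9.24% and 6.19% from the first to the last stage. The share at the highest *Mpo* was 3.58 ± 0.385 times (SD, n = 3) that in the latest stage.

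Cells of other types inside the same gate were read beside the stages. They were sorted for CD133 as well, and whether their *Prom1* was their own transcript or free RNA was not tested. The 468 cells with monocyte markers stood at 7.38 CPM of *Prom1* (95% interval 5.01 to 10.5), and 2.99% of them (1.65% to 4.97%) had a UMI at 3000 UMIs. Of these, 370 were young, at 5.49 CPM, and 61 old, at 13.3 CPM (5.75 to 26.3). The 218 cells with markers of B progenitors, NK and T cells or erythroid cells stood at 11 CPM (6.89 to 16.7), and 4.13% (1.91% to 7.69%) had a UMI at 3000. Of these, 193 were young, and the 19 control and the 6 old cells held 3 *Prom1* UMIs per library. Cells with dendritic markers (124 cells) were higher, at 29.6 CPM and 6.45% (2.83% to 12.3%). The 16 cells with macrophage markers stood at 79.2 CPM from 9 UMIs (36.2 to 150 CPM) and at 18.75% (4.05% to 45.6%). Median depths of the monocyte and of the lymphoid and erythroid cells were 8000 and 8544 UMIs. The mean shares of the first 6 stages lay above the intervals of the monocyte-marked and of the lymphoid and erythroid cells. That of the latest stage, 6.19%, lay inside the interval of the lymphoid and erythroid cells. The interval of the dendritic-marked cells held the stage means from 3 to under 10 *Mpo* onward, and that of the macrophage-marked cells held every stage mean.

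*Elane*, an abundant azurophil transcript, was used as a yardstick for free RNA in the droplets. Per 1000 *Elane* UMIs, the young library held 2.56 *Prom1* UMIs in monocyte-marked cells and 4.06 in lymphoid and erythroid cells. The ratio was 5.82 over all kept young cells and 2.45 in the young stage with the most *Mpo*. The ratio was 19.98 and 34.7 in the young cells with 3 to under 10 and under 3 *Mpo*. Young cells with dendritic markers had a ratio of 8.61. In the latest stage the ratio was 11.7, 9.14 and 16.4 in control, young and old. *Mpo* itself stood at 505 and 173 CPM in the young cells with 3 to under 10 and under 3 *Mpo*. Young cells set apart by NK and T or by B progenitor markers held 410 and 701 CPM of it. Neither of these 2 lowest bands of *Mpo* thus stood above the B-progenitor-marked cells. The part of free RNA in the placing of cells or in the level of any stage was not tested.

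**Figure D3:**
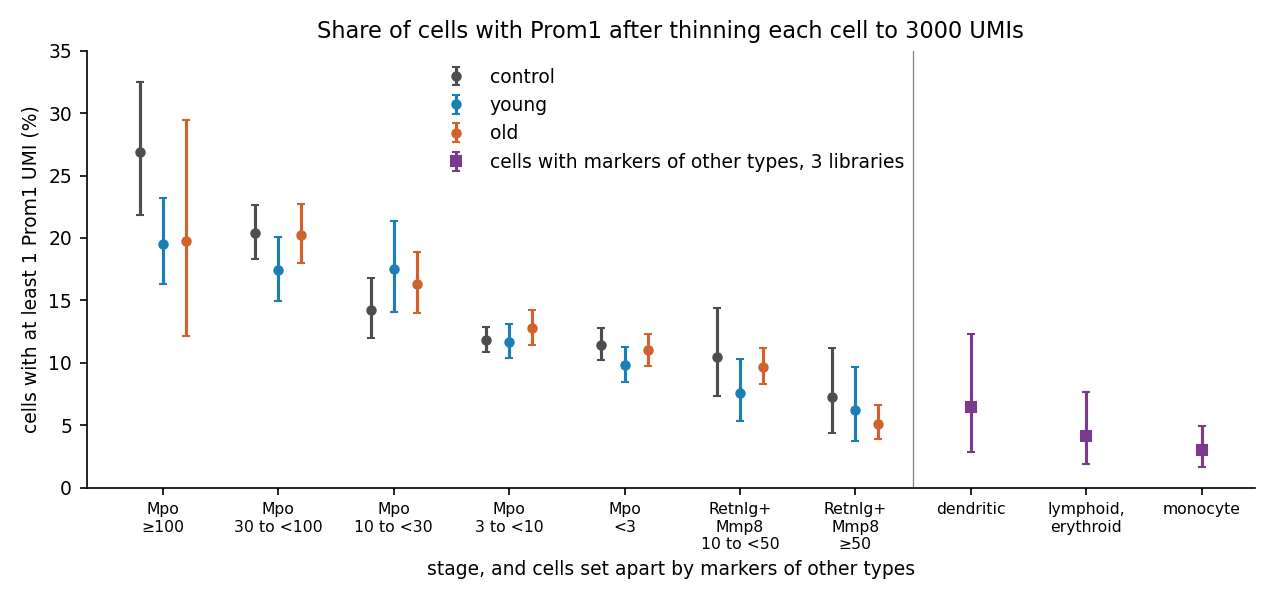
Share of cells with at least 1 Prom1 UMI after thinning to 3000 UMIs (percent, vertical axis) in the 7 stages by library and in cells set apart by markers of other types (horizontal axis), with exact 95% binomial intervals. Stage means run from 22.1% to 6.19%, and monocyte-marked cells stand at 2.99%.

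The counts of *Prom1* per cell were set beside those that 1 level per stage and library would give. Over the 25963 cells, 2952 had 2 or more UMIs, and 2813 would be expected if each stage of each library had 1 level and each cell drew by its depth. The observed and expected numbers were 189 and 195 at the highest *Mpo*, 832 and 811 at 30 to under 100, 454 and 445 at 10 to under 30, 791 and 739 at 3 to under 10, and 529 and 495 at under 3. They were 132 and 112 in the first late stage and 25 and 16.4 in the latest, where old had 15 against 7.94. No cell had more than 7 UMIs. In 6 of the 7 stages the observed number was the higher of the 2.

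The genes whose levels ran most like that of *Prom1* were sought over the 21 sums of 1 stage in 1 library. Among 4768 genes with at least 10 CPM in every library, the 10 with the highest Pearson correlation of log2(CPM + 1) were *Nt5c* (r = 0.985), *Cox5a* (0.983), *Vma21* (0.981), *Pcnp*, *Uqcrb*, *Nudt5*, *Sfxn1*, *Snrpa1*, *Rbm8a* and *Ndufa5* (0.973). *Cox5a*, *Uqcrb* and *Ndufa5* encode subunits of respiratory complexes, *Nt5c* and *Nudt5* nucleotide enzymes, *Vma21* an assembly factor of the vacuolar proton pump, and *Snrpa1* and *Rbm8a* proteins of RNA splicing. None is a marker of stem cells or of granules. *Nt5c*, at a level like that of *Prom1*, went from 88.1 to 34.3 CPM between the first and the last stage, and *Vma21* from 94.9 to 34.6 CPM. Such likeness was common, as the median r over all genes compared was 0.749 and 21.2% reached 0.9, and the 21 sums share their libraries and the changing share of the granule genes.

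Other genes known as progenitor markers were low. *Kit*, the receptor for stem cell factor, stood at 18.0 to 37.5 CPM at the highest *Mpo* and at 2.84 to 10.5 CPM in the latest stage. *Cd34* lay under 5 CPM in all 21 sums, at 0.961 to 1.91 CPM at the highest *Mpo*. Of 16 stem and progenitor genes 12 were tested between the first and last stage, and edgeR called 6 higher and 1 lower at the highest *Mpo*, with a median log2 fold change of 1.18 beside 0.067 over all genes, of which 32.9% were higher and 32.8% lower. Of the 9 genes listed as prominin relatives or partners 5 were tested, with 0 higher and 1 lower. The other lists show how far the 2 ends of the series lie apart. Of 22 S phase genes 21 were higher at the highest *Mpo*, and of 21 genes of ribosome biogenesis 20 were, with medians of 1.55 and 2.43. Of 15 late maturation genes 15 were lower there, with a median of -3.70, and *Mmp9* went from 10.3 to 22.3 CPM at the highest *Mpo* to 846 to 1056 CPM in the latest stage. Both early and late granule genes helped to set the stages, so that these directions were in part imposed.

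Libraries were compared without a test, since each label is 1 library of pooled mice, and ratios carry exact 95% intervals that cover counting error only. Over all stages *Prom1* stood at 52.8 CPM in control (51.3 to 54.2), 46.9 in young (45.3 to 48.6) and 45.9 in old (44.7 to 47.1). The ratio of old to young was 0.978 (0.936 to 1.02). Control was 1.12 times young (1.08 to 1.18) although both labels give the same age. Old was 0.870 times control (0.837 to 0.904). With the 7 stages weighted equally the ratios were 1.02, 1.14 and 0.896. Control and young, of the same labelled age, thus lay nearly as far apart as control and old, and further apart than young and old. The study presents 10869 cells, the number in the control library, apart from its comparison of 8362 young and 10597 old cells. For control, experiment and label therefore cannot be told apart.

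Stage by stage, old over young ran from 0.902 to 1.14 in the first 6 stages. The value of 0.902 was that of the first late stage, which takes cells of any *Mpo*. Its *Mpo* stood at 1267 CPM in young and 378 CPM in old. Inside it, at 3 to under 10 and under 3 *Mpo*, *Prom1* stood at 30.9 and 32.9 CPM in old and at 26.1 and 29.3 CPM in young, with intervals that overlapped. Of the first 6 stages, only at 3 to under 10 *Mpo* did the interval of old over young leave out 1 (1.14, 1.04 to 1.24). Control over young, of the same labelled age, was 1.13 there (1.04 to 1.22), and old over control 1.01 (0.939 to 1.08). At under 3 *Mpo* control over young was 1.20 (1.09 to 1.32) and old over control 0.902 (0.829 to 0.981). At 3 to under 10 *Mpo* the 20 most abundant genes took 51.0%, 51.4% and 45.1% of UMIs in control, young and old. Such shares shift CPM and the ratios were not scaled for them, so their part in the ratios of that stage was not tested. In the latest stage old was lower, at 0.622 times young (0.445 to 0.881) and 0.520 times control (0.365 to 0.752), while control over young was 1.20 (0.777 to 1.84). These values rest on 43, 50 and 127 *Prom1* UMIs in 249, 289 and 1036 control, young and old cells. At 3000 UMIs the shares of positive cells there, 7.23%, 6.23% and 5.12%, had intervals that overlapped.

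The latest stage was not made up alike in the 3 libraries, and finer bands of *Retnlg* and *Mmp8* were read for that reason. With 50 to under 100, *Prom1* stood at 39.9 CPM in control, 31.7 in young and 25.7 in old. With 100 to under 200 the levels were 29.6, 25.6 and 13.7 CPM, and with 200 to under 400 they were 18.2, 14.6 and 8.44 CPM. Only the old library held 50 or more cells above that, at 6.72 CPM (1.83 to 17.2). Every library descended with *Retnlg* and *Mmp8*, and old was lowest in each band, with intervals that overlapped those of young in all 3 bands. Old from 100 upward and young at 200 to under 400 lay within the interval of the lymphoid and erythroid cells or below it, as did the latest stage of old as a whole, although 193 of those 218 cells were young. *Elane* differed with *Prom1* there, at 4203, 4289 and 1330 CPM in the band of 50 to under 100, and so did median depth, at 4936, 6804 and 8622 UMIs. Their part in the lower old value was not tested.

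**Figure D4:**
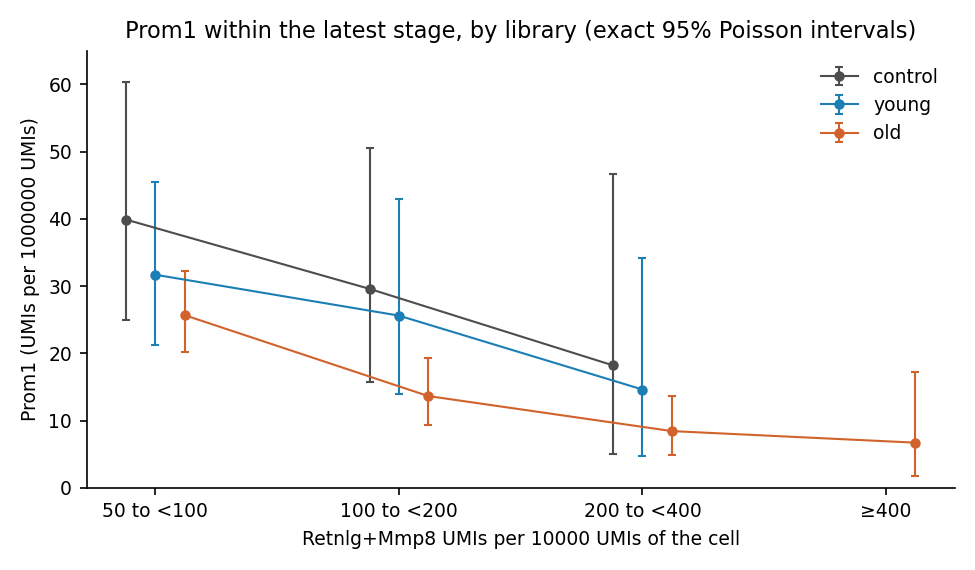
Prom1 level (UMIs per 1000000 UMIs, vertical axis) inside the latest stage by band of Retnlg+Mmp8 per 10000 UMIs (horizontal axis), 1 line per library with exact 95% Poisson intervals. Control goes from 39.9 to 18.2, young from 31.7 to 14.6 and old from 25.7 to 6.72, and the old points lie lowest in every band.

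Cells with 2 or more *Prom1* UMIs were compared with cells with 0 inside the same stage and library, to see what travels with the transcript once the stage is held. Each of the 1086 control, 660 young and 1206 old cells with 2 or more was paired with a cell of 0 UMIs of nearly the same depth, all pairs of a library were summed, and the 6 sums were tested with the library as block. The differences were small. edgeR called 55 of 9999 genes, 15 higher (0.15%) and 40 lower (0.4%) in the cells with *Prom1*, and 777 genes had an unadjusted p under 0.05. DESeq2 called 17. Without TMM factors 46 were higher and 36 lower, while the median of all genes moved from 0.00042 to 0.020. Without the libraries as blocks edgeR called 0 genes, with 18 at an unadjusted p under 0.05. With the cells of other types left in the stages 40 genes were called, of which 0 were higher and 10 were among the 55.

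The lower side held genes of later neutrophil stages. *Ltf*, lactoferrin of the specific granules, stood at 3024, 3058 and 3733 CPM in the cells with *Prom1* of control, young and old and at 3590, 3470 and 4297 CPM in their partners (log2 fold change -0.23 ± 0.015, adjusted p = 5.08e-10). It was lower in all 3 libraries. Of the 12 genes on the specific granule list 11 were tested, 5 were lower (*Ltf*, *Lyz2*, *Lcn2*, *Ngp*, *Chil3*) and 0 higher, with a median of -0.085 beside 0.00042 over all genes. *Lyz2* (lysozyme) fell by 0.19, *Lcn2* (lipocalin 2) by 0.12, *Ngp* by 0.12 and *Chil3* by 0.085 on the log2 scale. *Fcnb* (ficolin B), of the same list, had 0.068 and did not pass (adjusted p = 0.0588).

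Of 15 late maturation genes 4 were lower and 0 higher, with a median of -0.054. They were *Mmp9* (gelatinase, -0.31 ± 0.056), *Slpi* (-0.12), *S100a9* (-0.074) and *S100a8* (-0.054), the last 2 encoding the subunits of calprotectin. *Mmp9* stood at 19.2, 26.9 and 41.1 CPM in the cells with *Prom1* and at 26.2, 31.1 and 48.9 CPM in their partners. *S100a8* changed sign, to 0.014, when cells with markers of other types were kept. The highest of the list, *Csf3r*, had 0.090 and was not called.

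Among genes with at least 20 CPM, the 10 largest falls were those of *Pdcd4* (-0.52), *St3gal5* (-0.41), *Lgals1* (-0.35), *Ly6g* (-0.31), *Mmp9*, *Plbd1* (-0.30), *Ifi27l2a* (-0.25), *Ltf*, *Ifitm6* (-0.21) and *Ifitm1* (-0.20). *Ly6g* encodes a surface antigen of neutrophils, *Lgals1* a galectin and *St3gal5* the synthase of the ganglioside GM3, while *Ifitm6*, *Ifitm1* and *Ifi27l2a* belong to families of interferon-inducible genes. *Pdcd4*, a brake on translation, stood at 25.7, 36.3 and 14.1 CPM with *Prom1* and at 36.1, 48.2 and 21.4 CPM without (adjusted p = 2.29e-05). All 10 were lower in each of the 3 libraries, as the rule for naming them required.

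The higher side held genes of mitosis and of the azurophil granule list by edgeR, whereas DESeq2 called only *Ms4a3* and *Prtn3* higher. Of 22 genes of G2 and mitosis 5 were higher and 0 lower, with a median of 0.064. They were *Hmmr* (0.19 ± 0.043), *Cdc20* (0.17 ± 0.029), *Cenpa* (0.14 ± 0.025), *Ccnb2* (0.12) and *Cks2* (0.080). *Cdc20*, the activator of the anaphase promoting complex, stood at 137, 162 and 170 CPM with *Prom1* and at 124, 141 and 146 CPM without (adjusted p = 0.00157). None of these 5 passed with DESeq2 (adjusted p of 0.162 or more) or with edgeR without the old library (adjusted p of 0.0645 to 0.616), and *Hmmr* also missed the threshold without either of the others. The lowest of the G2 and mitosis list were *Aurkb* (-0.11) and *Kif11* (-0.10), neither of them called. Of 22 S phase genes 0 were called, with a median of -0.019.

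Of 7 genes tested from the azurophil granule list 3 were higher and 0 lower, with a median of 0.058. They were *Ms4a3* (0.088), *Prtn3* (proteinase 3, 0.068) and *Elane* (0.058, not called by DESeq2 or without the control or the young library), and *Prss57* (0.10) had an adjusted p of 0.0539. The lowest of the list, *Ctsc* (-0.046) and *Ctsg* (-0.037), were not called. At 20 CPM or more, the 10 largest rises were those of *Fuca2* (0.21), *F10* (0.20), *Hmmr*, *Lipg* (0.18), *Cdc20*, *Ffar2* (0.17), *Clec5a* (0.15), *Cenpa*, *Ccnb2* and *Ms4a3*. *Fuca2* encodes a fucosidase, *F10* coagulation factor X, *Lipg* a lipase, *Ffar2* a receptor for short-chain fatty acids and *Clec5a* a myeloid lectin receptor. *F10* stood at 69.0, 50.6 and 89.2 CPM with *Prom1* and at 57.1, 47.8 and 75.5 CPM without.

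**Figure D5:**
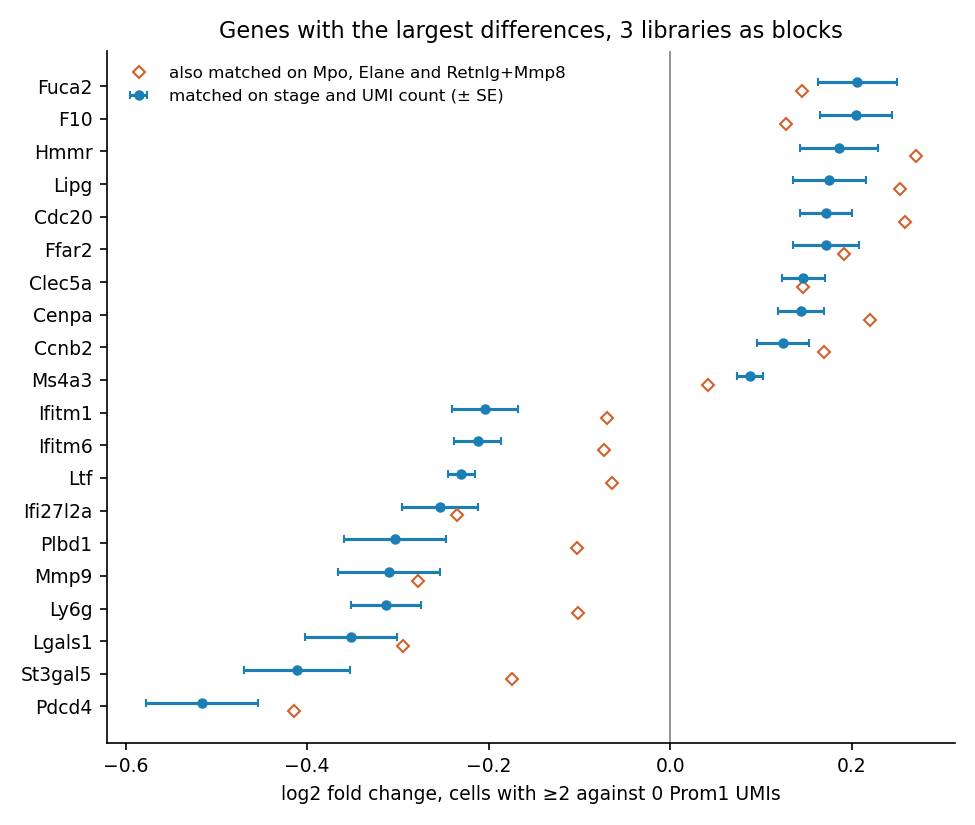
log2 fold change between cells with 2 or more and with 0 Prom1 UMIs (horizontal axis) of the 10 genes with the largest rises and the 10 with the largest falls (vertical axis), from the main matching (filled circles ± SE) and after further matching on Mpo, Elane and Retnlg+Mmp8 (open diamonds). Values run from -0.52 for Pdcd4 to 0.21 for Fuca2, and every diamond lies on the same side of 0 as its circle.

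The pairs were matched on stage and depth, not on the position within a stage, and that position moved with *Prom1*. In cells with 3 to under 10 *Mpo*, *Elane* stood at 36.9, 29.0 and 27.3 UMIs per 10000 in control, young and old cells with *Prom1* and at 25.5, 23.8 and 21.4 in their partners. A second matching, chosen after the data were seen, therefore also held *Mpo*, *Elane* and *Retnlg* with *Mmp8*. It called 53 genes, 19 higher and 34 lower, of which 21 were among the 55. The azurophil list then had 0 higher and 1 lower, *Ctsg* (-0.088), and its *Elane* was matched by construction. The G2 and mitosis list had 8 higher and 0 lower, with a median of 0.14. Specific granule and late maturation genes had 4 lower each and 0 higher. In this matching *Ltf* was at -0.064 and *Ly6g* at -0.10 (adjusted p = 0.451), whereas *Cdc20* was at 0.26, *Pdcd4* at -0.41 and *Mmp9* at -0.28.

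Of the 7 stages 4 held at least 50 cells with 2 or more *Prom1* UMIs in every library and were also tested alone. edgeR called 29 genes (0.33%) at 30 to under 100 *Mpo*, 3 (0.0411%) at 10 to under 30, 68 (0.862%) at 3 to under 10 and 17 (0.249%) at under 3. The lowest adjusted p at 30 to under 100 *Mpo* was that of *Actb* (-0.32), also lower at 3 to under 10 (-0.23) and under 3 (-0.16). At under 3 *Mpo* it was that of *Stfa1* (-0.96), then *BC100530* (-0.74). Over all stages, both moved in opposite directions in the libraries. Ribosomal protein genes such as *Rpl35* (0.18) were among the 31 higher at 3 to under 10 *Mpo*. Genes of the azurophil list parted by stage. *Elane* was higher at 3 to under 10 *Mpo* (0.35, adjusted p = 2.96e-14) and at under 3 (0.28), and stood at 0.016 and 0.065 in the 2 stages before (adjusted p = 0.908 and 0.980). *Prtn3* and *Ms4a3* were also called in these 2 later stages alone. *Ctsg* of the same list went the other way, called lower at 30 to under 100 *Mpo* (-0.11, adjusted p = 0.000184). It was not called in the other stages tested. The difference between stages was not tested. *Lyz2* was lower in all 4 stages, with -0.13, -0.20, -0.26 and -0.15. *Chil3* was higher at 30 to under 100 *Mpo* (0.10) and lower at 3 to under 10 (-0.18), and the specific granule list had 3 higher and 2 lower in the first of these stages and 0 higher and 5 lower in the second. The 3 genes called at 10 to under 30 *Mpo* were *Lyz2*, *Ube2c* (0.25), a ubiquitin-conjugating enzyme of mitosis, and *Gyg* (0.28), the primer of glycogen. *Pdcd4* (-0.71) and *Lgals1* (-0.58) were called at 30 to under 100 *Mpo* alone. From 10 to under 30 *Mpo* downward *Lgals1* stood at 0.029, -0.048 and -0.0011. *Pdcd4* stood at -0.0004 and -0.13 in the first 2 of these stages. At under 3 *Mpo* *Pdcd4* had a value of -0.63 that did not pass (adjusted p = 0.891).

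In the other lists few genes were called. None of the 9 stem and progenitor genes, 5 prominin relatives and partners, 21 ribosome biogenesis, 21 sterol synthesis and 9 myeloid transcription factor genes tested was called, with medians of -0.13, 0.035, -0.010, -0.017 and 0.011. The stem and progenitor genes ran from -1.55 to 0.28, and 3 of the 9 (33.3%) were lower in all 3 libraries, beside 11.6% of all genes. The lowest, *Cd34*, rested on few UMIs. It stood at 0.219, 0.480 and 0.506 CPM with *Prom1* in control, young and old and at 0.809, 3.12 and 0.564 CPM without. *Sox4*, also lower in all 3, stood at 1.02 and 1.03 CPM in control. Markers of other cell types were low in both classes. The 7 monocyte markers summed to 10.0, 26.7 and 15.2 CPM with *Prom1* and to 11.8, 36.9 and 19.4 CPM without, and the 10 erythroid markers to 36.1, 128 and 8.5 CPM and to 36.0, 163 and 9.88 CPM. Of the lists of other types 2 genes passed, *Cpa3* of basophils and mast cells (-2.37) and *Car2* of the erythroid list (-0.82), both lower and both at under 30 CPM in every sum. *Cpa3* stood at 1.56 and 7.93 CPM in young and *Car2* at 10.4 and 25.95 CPM, with and without *Prom1*. Monocyte, eosinophil, NK and T cell, and mesenchymal sums were lower with *Prom1* in 3 of 3 libraries, and their part in the called genes was not tested.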

How the data were processed

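Per the labels and methods, the authors sorted CD133+ marrow cells, prepared 10x Chromium 3′ v2 libraries, aligned with STAR, counted UMIs with Cell Ranger 2.1.0 on mm10 and deposited raw counts per gene and cell, without normalization. Whether opposite-strand reads were counted is not given in the sources used here. Kept cells had at least 200 genes, at most 20% mitochondrial UMIs and a UMI count between the 5th and 95th percentile of the control library or of young and old pooled, after the study's limits. Doublets were not called. Cells with at least 3 markers of another type at 10 or more UMIs per 10000 (100 for erythroid) were set apart. Kept cells held 95980225, 74708327 and 119588365 UMIs in control, young and old, and intervals are exact at 95% and cover counting error only. Sums were tested with edgeR 4.0.16 (quasi-likelihood, TMM, Benjamini-Hochberg over all genes, genes with at least 10 UMIs in 3 or more sums), with the library as block because both sums come from the same library. DESeq2 1.42.0 was an alternative. Cells of a library share mice and preparation, so sums per library, not cells, were the units tested. edgeR shares information on spread across genes. Its p-values therefore do not measure a gene's own spread over 3 libraries alone. The SE beside its fold changes was taken from its test statistic, and it is not a spread over libraries either. On simulated counts for the comparison of *Prom1* classes (10097 genes), 100 of 100 genes at each of 2 fold sizes were recovered with 8 false calls. For the first against the last stage (10774 genes), 98 of 100 and 69 of 100 were, with 11 false calls. The simulated sums shared 1 profile at a set spread, without differences between libraries. Both fold sizes were larger than most differences named between *Prom1* classes. Recovery of differences as small as those was not simulated. Genes named are the 10 largest rises and falls at 20 CPM or more with 1 direction in every library, and the 10 most correlated with *Prom1*. Called members of the gene lists are named as well, with some of the list extremes that were not called. The gene, its stages and the lists were chosen with earlier results of these data known. Python 3.11.15 and R 4.3.3 were used.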

Additional observations from a re-analysis of the deposited data

Results flagged for a closer look

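Among the 55 genes called between cells with 2 or more and with 0 *Prom1* UMIs, 2 moved in opposite directions in the libraries. *BC100530*, a stefin-like gene, differed by 0.56 in control, 0.72 in young and -0.39 in old (log2 of the ratio of CPM). *Stfa1*, a stefin, differed by 0.18, 0.63 and -0.46. The old sums carried most of the UMIs of both genes, at 204 and 268 CPM of *BC100530* and 191 and 262 CPM of *Stfa1* with and without *Prom1*, against 10.4 to 19.4 and 24.4 to 37.7 CPM in the other libraries. The edgeR fold changes over the 3 libraries were -0.31 and -0.33. With 1 library per label the difference between the libraries was not tested.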

How the results depend on the processing

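Between the first and last stage the difference in *Prom1* kept its direction and its side of the threshold in all 12 alternatives, with log2 values of 0.59 to 0.94 when a library was left out. Among neighbouring stages, 100 or more against 30 to under 100 *Mpo* turned to 0.10 without TMM factors and ranged from -0.053 to 0.041 as libraries were left out. The next step turned to 0.13 without TMM and to 0.013 with stages from thinned counts, and ranged from -0.13 to -0.077. From 10 to under 30 to 3 to under 10 *Mpo* the value missed the threshold at 0.28 without the replicate block and at 0.22 with thinned stages, and ranged from 0.27 to 0.30 as libraries were left out. Under 3 *Mpo* against the first late stage turned to -0.097 with thinned stages, and the last step was 0.49 without the replicate block and 0.32 to 0.64 with a library left out.

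The count of 55 genes became 17 with DESeq2, 0 without the replicate block, 4683 without matching on depth, 517 for at least 1 UMI and 34 without the deepest cells, and 48 to 71 with a library left out. In the single stages, from 30 to under 100 *Mpo* downward, 29, 3, 68 and 17 became 19, 1, 39 and 9 when also matched on *Mpo*, 8, 8, 9 and 3 when matched on 4 measures, 3, 0, 36 and 1 with DESeq2, and 0 in each without the replicate block. With a library left out they ranged from 1 to 39, 0 to 3, 16 to 89 and 2 to 18. The lowest count was without control for the first 2 stages and without old for the other two. Fewer cells and genes enter there.

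Without matching on depth *Lipg* (-0.15), *Ffar2* (-0.025), *Cenpa* (-0.025), *Ccnb2* (-0.071), *Pdcd4* (0.25) and *Lgals1* (0.053) reversed, and *S100a8* did at 0.014 with other cell types kept. *BC100530* turned to 0.27 with DESeq2, 0.61 without old, 0.022 matched on *Mpo* and 0.085 matched on 4 measures (range -0.36 to 0.61 with a library left out), and *Stfa1* to 0.090, 0.35 and 0.10 in the first 3 and 0.31 for 3 or more UMIs (range -0.41 to 0.35). Of 536 values of named genes under alternatives, 335 stayed on the same side, 174 lost the threshold, 12 passed it newly and 15 reversed. The causes were not tested.

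The log2 ratio of old to young, -0.033, was 0.24 per cell without scaling for depth and 0.060 with other cell types kept. Control over young, 0.17, was then 0.26 with them, and old over control, -0.20, was 0.13 per cell. The share of positive cells at the first over the last stage was 3.13 ± 0.869 at 5000 UMIs, 4.16 unthinned and 3.89 with a second seed, beside 3.58. At 5000 UMIs, 1087 control, 620 young and 280 old cells were too shallow and were left out. The latest stage had a median depth below that in control (4436 UMIs) and young (4918 UMIs). With 43 to 127 UMIs of *Prom1* in a library's latest stage, depth limits the late comparison of libraries.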
